A study of Mus musculus with 6 samples.

Results

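The 10 genes described here encode enzymes that desaturate or lengthen fatty acids: the stearoyl-CoA desaturase genes Scd1, Scd2 and Scd3, the fatty acid desaturase genes Fads1 and Fads2, and the elongase genes Elovl1, Elovl2, Elovl3, Elovl5 and Elovl6. They were chosen by symbol from the 55802 distinct symbols of the count files, and all 10 were found and listed once each. The libraries came from liver of male C57BL/6 mice, 3 from mice given chow containing polystyrene microplastic (PS-MP) and 3 from mice given normal chow (control), with rearing over 71 weeks in both groups. The comparison asks how hepatic gene expression differs with PS-MP in the chow. Neither particle size nor dose nor the start of feeding is given in the labels. Nothing there says whether each library is 1 mouse, so p-values measure the spread between these libraries, which may be technical.

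Fatty acids made in the liver leave fatty acid synthase as palmitate. ELOVL6 lengthens palmitate to stearate, and SCD enzymes place the first double bond, which gives palmitoleate and oleate for triglycerides, cholesteryl esters and membranes. Dietary linoleic and alpha-linolenic acid take another route, in which FADS2, ELOVL5, FADS1 and ELOVL2 act in turn to make arachidonic acid and the long omega fatty acids of fish oil type. ELOVL1 and ELOVL3 make saturated and monounsaturated chains of very great length, ELOVL1 for ceramides in many tissues. In liver, the genes of both routes are induced by insulin, the sterol-regulated factor SREBP-1c and the oxysterol receptor LXR, and polyunsaturated fatty acids lower their transcripts.

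The PS-MP libraries held 79081889, 79317092 and 79691824 counts and the control libraries 75897165, 68357478 and 112566641. Levels below are counts per 1000000 (CPM) after library sizes were adjusted with TMM factors (trimmed mean of M values), and fold changes are on the log2 scale, PS-MP over control. Reads of 18S ribosomal RNA, which poly(A) selection should remove, took 0.387 to 1.14% of counts in PS-MP and 1.15 to 11.2% in control (two-sided exact permutation p = 0.1, the smallest that 3 against 3 allows), and genes with a count numbered 24004 to 24763 in PS-MP and 23042 to 23791 in control (exact permutation p = 0.1). With 18S reads removed before scaling, the median log2 fold change of the 10 genes was -0.76, as it was with them. TMM trims genes with extreme values, so this removal could hardly move the median, and it does not address RNA quality. Hepatocyte markers were abundant in every library, with Alb between 48002 and 64520 CPM in PS-MP and between 46945 and 56452 CPM in control. In pieces of tissue, fewer cells of a type and less RNA per cell cannot be told apart.

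All 10 genes had a lower fitted level in PS-MP than in control, and none passed the test over all 17662 genes. The log2 fold changes ran between -2.09 for Scd3 and -0.35 for Elovl2, with a median of -0.76, where the median of all genes tested was 0.02. With the quasi-likelihood test of edgeR, 0 of 10 had a Benjamini-Hochberg adjusted p under 0.05 (smallest adjusted p = 0.805), where 0.0113% of all genes were called. DESeq2 and limma-voom also called 0 of 10, where they called 1.06% and 0.00566% of all genes, and the smallest adjusted p that any alternative gave was 0.0957, for Scd1 with DESeq2. At an unadjusted p under 0.05, 4 of the 10 were lower (Scd1, Scd2, Elovl5 and Elovl6) and 0 higher, where 2.58% of all genes were lower and 2.80% higher (5.38% in either direction). After TMM scaling, the 3 PS-MP libraries lay below the 3 control libraries for 5 genes (Scd1, Scd2, Scd3, Elovl5 and Elovl6). Of all genes, 4.99% did so. The reverse order was found for 0 of the 10 and for 6.24% of all genes. A log2 fold change below zero was found for 47.2% of all genes. The 10 genes were named with earlier results of these data known, so these shares stand beside the background as a description.

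The count of 4 depended on single libraries. Leaving out PS-MP 1, PS-MP 2, control 1 or control 3 gave a count of 2 each. The count was 6 when PS-MP 3 was left out and 5 when control 2 was. Scaling by library size alone moved the median of all genes to 0.23 and left 1 of the 10 at an unadjusted p under 0.05. All 10 stayed below zero there, with a median 0.77 below that of all genes, the same distance as with TMM. By share of all counts, however, the groups overlapped for Scd1, Scd2, Scd3, Elovl5 and Elovl6. Scd1 took 0.353% of counts in PS-MP replicate 3 and 0.311% in control replicate 2.

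**Figure D1:**
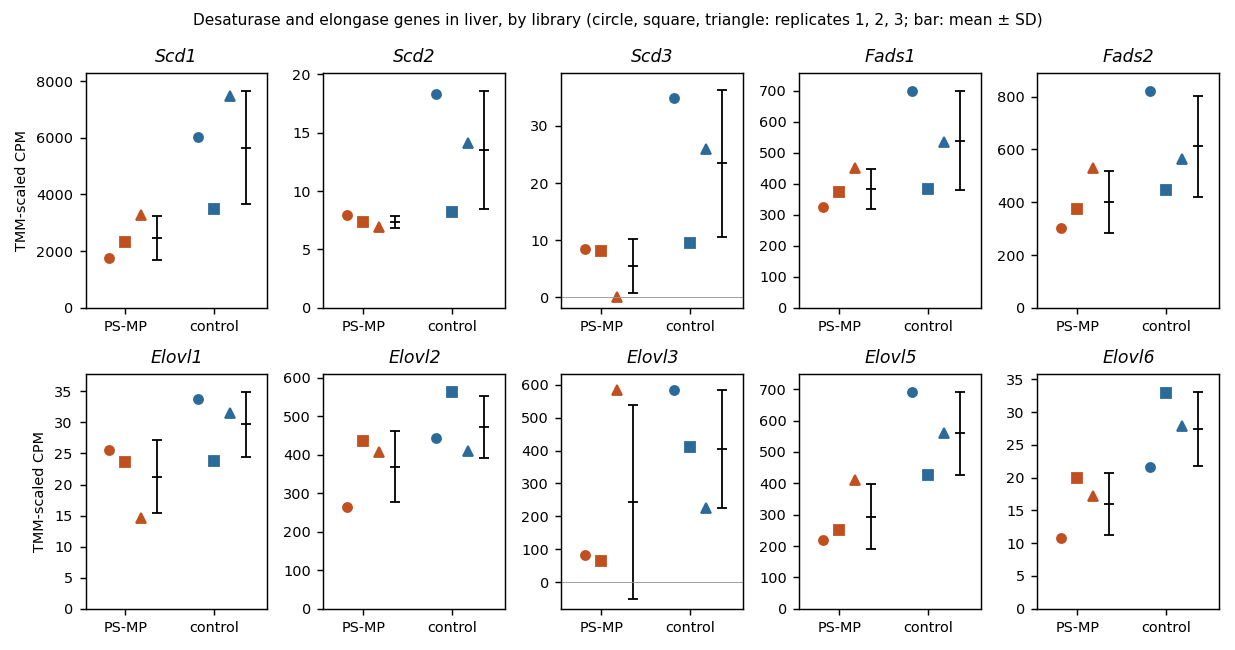
TMM-scaled CPM (linear axis, a separate scale for each gene) of the 10 desaturase and elongase genes, with PS-MP libraries left and control libraries right in each panel; circle, square and triangle are replicates 1, 2 and 3, and the bar gives mean and SD of 3 libraries. The groups do not overlap for Scd1, Scd2, Scd3, Elovl5 and Elovl6, and for most genes control replicate 2 (blue square) is the lowest control library.

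Scd1, the main stearoyl-CoA desaturase gene of liver, was by far the most abundant of the 10. It stood at 1774, 2323 and 3283 CPM in the PS-MP libraries, against 6014, 3493 and 7464 CPM in the control libraries. The highest PS-MP library was 209.7 CPM below the lowest control library, so the groups were apart by a margin smaller than the SD within either group (764 CPM in PS-MP and 2010 CPM in control). The fitted level in PS-MP was 43.5% of control, with a 95% interval of 24.4 to 77.4%. On the log2 scale this is -1.20 (SE 0.35; adjusted p = 0.805, edgeR). Scd1 alone took 57.5 to 59.9% of the counts of the 10 genes in PS-MP and 60.3 to 75.7% in control.

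Scd2 and Scd3 encode desaturases with sequences close to Scd1, Scd2 being best known from brain and Scd3 from skin and Harderian gland. Scd2 had 7.92, 7.33 and 6.90 CPM in PS-MP, against 18.3, 8.20 and 14.1 CPM in control (log2 fold change -0.87, SE 0.30, adjusted p = 0.855). The PS-MP libraries were tightly grouped and control replicate 2 lay 0.28 CPM above the highest of them. Scd3 had 698, 714 and 0 counts in PS-MP, against 2530, 578 and 2750 in control. PS-MP replicate 3, which held 281101 counts of Scd1, thus listed Scd3 at 0, while the other 2 PS-MP libraries were close to control replicate 2, above it in counts and below it after scaling (8.47 and 8.09 CPM in PS-MP, against 9.49 CPM in control replicate 2). Its log2 fold change of -2.09 has an interval that spans zero (-5.52 to 1.35), and it was -1.51 without PS-MP replicate 3.

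The Scd genes lie next to each other on chromosome 19, in the order Scd3, Scd2, Scd4 and Scd1 of the RefSeq annotation. Stretches of 50 bases shared with another of these transcripts made up 4.56% of those of Scd1, 3.75% of Scd2, 6.26% of Scd3 and 3.01% of Scd4 (GENCODE M21), so a small part of the reads could be assigned to a neighbour. Scd4, which is not among the 10, showed the same kind of gap in another library, with 67, 69 and 65 counts in PS-MP and 179, 0 and 231 in control. Scd1 made up 99.04% or more of the summed Scd counts in every library, and with the 4 genes summed before the fit the log2 fold change was -1.20, as for Scd1.

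FADS1 and FADS2 are the front-end desaturases of the polyunsaturated route, and their genes are neighbours on chromosome 19. Fads2, which acts at the first and rate-limiting step, had 302, 374 and 531 CPM in PS-MP, against 823, 446 and 565 CPM in control. Fads1, which makes arachidonic acid, had 325, 372 and 452 CPM in PS-MP, against 700, 384 and 534 CPM in control. In both genes PS-MP replicate 3 exceeded control replicate 2 and the groups overlapped. The log2 fold changes were -0.60 for Fads2 (SE 0.30, interval -1.31 to 0.11) and -0.49 for Fads1 (SE 0.25, interval -1.09 to 0.10).

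Counts of both Fads genes were nearly equal within a library. The ratio of Fads1 to Fads2 counts, which needs no scaling, was 1.07, 0.996 and 0.851 in PS-MP and 0.851, 0.860 and 0.945 in control, with overlap. Scd1 differed from Fads2 by more. There were 5.87, 6.22 and 6.18 counts of Scd1 per count of Fads2 in PS-MP, against 7.31, 7.83 and 13.2 in control, without overlap. All other count ratios that were formed overlapped between the groups. Counts of Scd1 per count of Elovl5 were 9.23 in PS-MP replicate 2 and 8.19 in control replicate 2. Per count of Elovl6 they were 116 and 106 in those libraries. How often a ratio of any pair of genes separates the groups was not tested. Fads3, whose product acts on sphingoid bases, was low, with 77, 181 and 119 counts in PS-MP and 76, 52 and 29 in control.

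**Figure D2:**
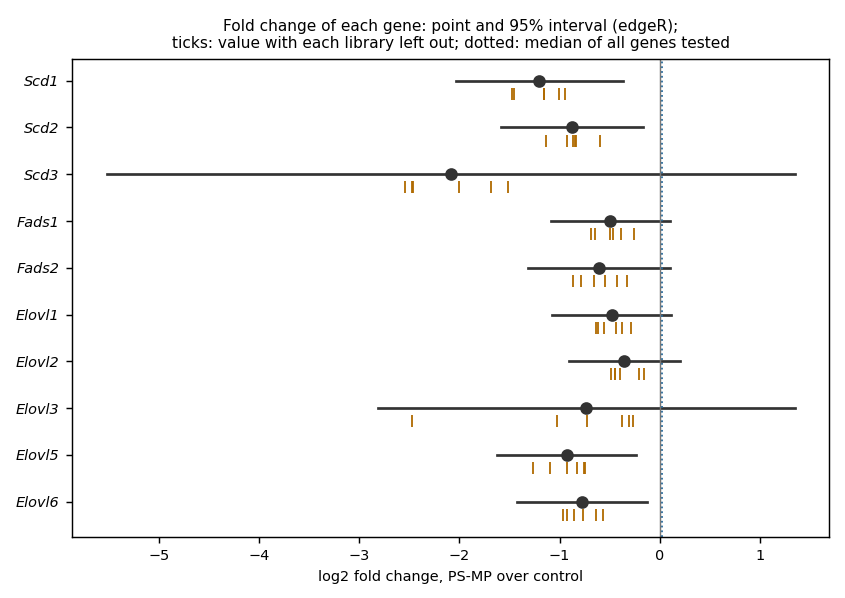
Log2 fold change of each gene, PS-MP over control, with its 95% interval from edgeR (all 6 libraries); short ticks give the value when each library is left out, and the dotted line is the median of all genes tested, 0.02. Every point and tick lies below zero, while only the intervals of Scd1, Scd2, Elovl5 and Elovl6 end below zero and those of Scd3 and Elovl3 are the widest of the 10.

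Elongases choose their substrates by chain length and by the number of double bonds. Elovl5, which lengthens the products of FADS2 and is a target of SREBP-1c, had 219, 252 and 411 CPM in PS-MP, against 692, 427 and 560 CPM in control. The PS-MP libraries lay below the controls, with a gap of 16.0 CPM between PS-MP replicate 3 and control replicate 2 (log2 fold change -0.93, SE 0.29, interval -1.63 to -0.23, adjusted p = 0.814). Elovl6, the elongase of palmitate and a lipogenic gene, was far less abundant, at 10.7, 20.0 and 17.2 CPM in PS-MP and 21.6, 32.9 and 27.9 CPM in control (log2 fold change -0.78, SE 0.27, interval -1.43 to -0.13, adjusted p = 0.869). The lowest control for Elovl6 was replicate 1, not replicate 2 as for Scd1.

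Elovl2, which carries the chain past the length ELOVL5 prefers, was the member with the least difference. It had 264, 435 and 408 CPM in PS-MP, against 442, 564 and 409 CPM in control, and the groups overlapped. Its interval, -0.91 to 0.20, was the only one among the 10 that lay wholly inside a 2-fold change, where 53.6% of all genes did so. Counts of Elovl5 per count of Elovl2 were 0.831, 0.578 and 1.01 in PS-MP and 1.57, 0.757 and 1.37 in control, with overlap. Elovl1 had 25.6, 23.6 and 14.7 CPM in PS-MP, against 33.8, 23.8 and 31.5 CPM in control (log2 fold change -0.48, SE 0.25), where PS-MP replicate 1 exceeded control replicate 2.

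Promoter sequence from RefSeq (GRCm38.p6) was matched by symbol for 6 of the 10 genes. It is shown for the 3 of these whose scaled libraries did not overlap, Elovl5, Elovl6 and Scd3, a choice made on the expression values. Promoters were searched because SREBP-1c acts there together with the CCAAT-binding factor NF-Y. Each line gives the 250 bases before the annotated start, 5′ to 3′ on the strand of the gene, with motif matches in capitals. The motifs searched on both strands were the NF-Y box CCAAT, the sterol regulatory element TCACNCCAC, the E-box CACGTG and the nuclear receptor half-site AGGTCA; among the matches shown none overlap. The windows are chr9:77917115-77917364 (plus strand) for Elovl5, chr3:129532136-129532385 (plus strand) for Elovl6 and chr19:44203038-44203287 (plus strand) for Scd3.
Elovl5: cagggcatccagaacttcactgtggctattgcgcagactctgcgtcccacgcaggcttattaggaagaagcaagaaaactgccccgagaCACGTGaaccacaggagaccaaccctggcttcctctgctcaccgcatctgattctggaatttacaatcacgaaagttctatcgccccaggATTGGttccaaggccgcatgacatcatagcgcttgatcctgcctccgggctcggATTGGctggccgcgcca
Elovl6: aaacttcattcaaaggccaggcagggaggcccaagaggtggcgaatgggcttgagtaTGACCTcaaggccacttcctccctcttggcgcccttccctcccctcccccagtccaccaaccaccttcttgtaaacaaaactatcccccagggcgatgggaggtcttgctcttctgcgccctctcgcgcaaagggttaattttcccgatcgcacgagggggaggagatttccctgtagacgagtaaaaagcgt
Scd3: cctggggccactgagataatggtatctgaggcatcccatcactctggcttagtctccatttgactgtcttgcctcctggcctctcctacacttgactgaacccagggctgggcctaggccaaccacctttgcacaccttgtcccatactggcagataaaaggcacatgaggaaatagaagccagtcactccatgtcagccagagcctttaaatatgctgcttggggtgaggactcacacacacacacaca

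The Elovl5 window held 2 NF-Y boxes, which begin 71 and 17 bases before the start and are read as ATTGG on the strand shown, and 1 E-box that begins 161 bases before it. The Elovl6 window held 1 nuclear receptor half-site, read as TGACCT and beginning 193 bases before the start, and the Scd3 window held no match to the 4 motifs. Among windows not shown, those of Elovl1, whose groups overlapped, held an NF-Y box 35 bases and a half-site 95 bases before their starts. Those of Elovl2 and Fads2 held no match. No window of a member held the sterol regulatory element. Of the 32851 promoter windows of the same length, 33.9% hold an NF-Y box, 6.02% an E-box, 14.0% a half-site and 1.05% the sterol regulatory element. A match describes the letters in the window and says nothing of binding in these livers.

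Per kilobase of annotated exon, the 10 genes covered a wide range of levels. Scd1 led with a mean of 503 CPM per kilobase in PS-MP and 1156 in control. A middle tier held Elovl3, Fads2, Elovl5, Elovl2 and Fads1, with means of 79.6 to 124 CPM per kilobase in PS-MP and 112 to 205 in control, and within it the libraries of neighbouring genes overlapped. Elovl1 stood at 7.81 CPM per kilobase in PS-MP and 10.9 in control. Elovl6, Scd3 and Scd2 were lowest, between 1.35 and 2.48 in PS-MP and between 2.48 and 6.60 in control.

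The libraries did not differ by diet alone. Control replicate 2 was the lowest control for 7 of the 10 genes and PS-MP replicate 3 the highest PS-MP library for 5. That control library also had the largest share of 18S reads (11.2%, against 2.92 and 1.15% in control replicates 1 and 3). It held the fewest counts as well, and whether these features are linked was not tested. Control replicate 1 was the highest of all 6 libraries for 6 genes, and PS-MP replicate 1 the lowest of all for 6. Summed over the 10 genes, levels ran between 3019 and 5708 CPM in PS-MP and between 5796 and 9855 CPM in control, so PS-MP replicate 3 and control replicate 2 nearly met.

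**Figure D3:**
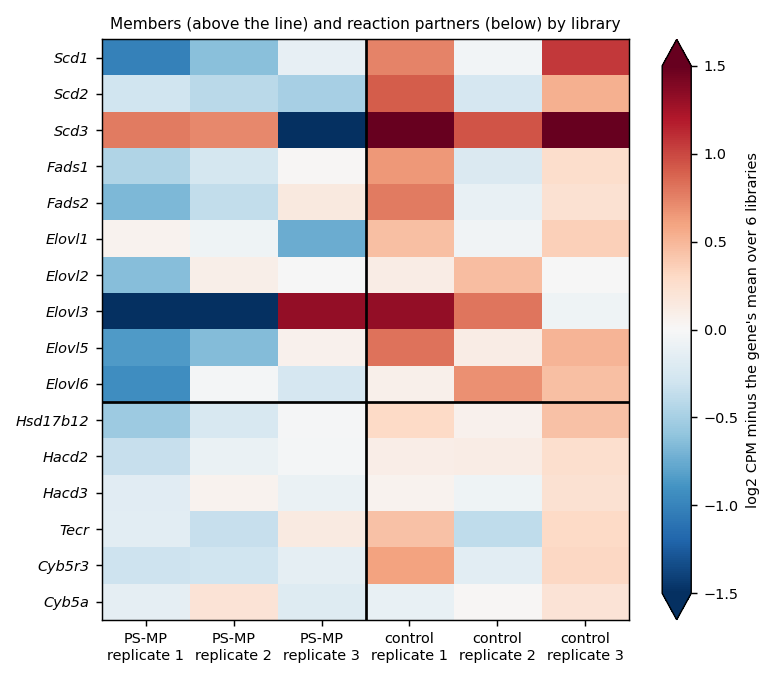
Log2 CPM of each gene minus its own mean over the 6 libraries (colour, clipped at 1.5 either way), with PS-MP libraries left of the vertical line and control libraries right; members stand above the horizontal line and enzymes that act with them below. Control replicates 1 and 3 are red for most members, control replicate 2 is pale for Scd1, Fads1, Fads2, Elovl1 and Elovl5, and Elovl3 is deep red in PS-MP replicate 3, where Scd3 is deep blue.

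Elovl5 followed Scd1 more closely than any other member did. The likeness of each gene to Scd1 was measured as the root mean square distance between their log2 CPM over the 6 libraries, each centred on its own mean, among 6595 genes whose mean over the 6 libraries was at least 10 CPM. For Scd2, Scd3 and Maf1 the mean of the PS-MP libraries was below that minimum, which they passed only through their control libraries. Elovl5 ranked as gene 4 in that order (distance 0.26), Fads2 as gene 41, Scd2 as 58, Fads1 as 76 and Elovl6 as 245, while Elovl1, Elovl2, Elovl3 and Scd3 ranked at 1210 or beyond. The median gene lay at 0.72. The distance takes in the difference between the diets, so genes near Scd1 tend to be lower in PS-MP as well. The log2 fold changes of the 5 genes named next ran between -1.29 and -0.78. The genes nearest to Scd1 outside the family were Cyp4a12a (0.18), a fatty acid hydroxylase gene that is higher in males, the glutathione transferase gene Gstm3 (0.20), Maf1 (0.22), a repressor of RNA polymerase III, the cholesterol synthesis gene Nsdhl (0.30) and the progestin receptor gene Paqr7 (0.30). Cyp4a12a and Gstm3 belong to multigene families, and reads shared with their relatives were not measured.

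Elovl3 had the widest spread of the well expressed members. This elongase gene is known for high levels in male liver and for a strong daily rhythm. Its levels were 83.4, 63.5 and 585 CPM in PS-MP, against 583, 409 and 224 CPM in control, so PS-MP replicate 3 matched the highest control while the other 2 PS-MP libraries lay below every control. The log2 fold change of -0.73 (SE 0.87, interval -2.82 to 1.35) was -2.48 without PS-MP replicate 3 (adjusted p = 0.406) and -0.27 without PS-MP replicate 2.

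The clock output gene Dbp ran opposite to Elovl3 across the libraries. Dbp, a transcription factor gene with one of the largest daily swings in liver, had 35.7, 78.2 and 0.911 CPM in PS-MP, against 2.01, 2.23 and 44.3 CPM in control. The clock activator gene Npas2, which peaks at another time of day, had 0.619, 0.227 and 4.20 CPM in PS-MP, against 4.39, 2.81 and 0.983 CPM in control. Libraries high in Npas2 were thus the 3 highest in Elovl3, in both diets. The labels used here give no time of collection. Of 15 clock genes, 4 were below zero (median 0.46) and edgeR, DESeq2 and limma-voom called 0, with 1 higher at an unadjusted p under 0.05, Per2 (1.48). Clock had -0.87. With an index of 5 clock genes as a covariate, chosen after the data were seen, the log2 fold change of Elovl3 was -0.41 (SE 0.33) and that of Scd1 -1.19, and the median of the 10 was -0.75. Scd1 did not share the full order of Elovl3, since its highest library was control replicate 3, where Dbp was high. Among PS-MP libraries, replicate 3 was highest for both Scd1 and Elovl3. By the distance used for Scd1, the members nearest to Elovl3 were Elovl5 (gene 81 of 6595), Fads2 (155), Scd1 (224) and Fads1 (367). Elovl2, Elovl6 and Scd2 ranked at 694, 731 and 1074, and Elovl1 and Scd3 at 5023 and 6589. Scd1 lay at 1.02 from Elovl3, where the median gene lay at 1.30.

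Genes nearest to Elovl3 by the same distance, a list chosen after its values were seen, were Tubb2a (0.25), Lrfn3 (0.27), Tubb2b (0.38), Nfil3 (0.46), which encodes a repressor that competes with DBP, and Phospho1 (0.47). For Lrfn3 and Tubb2b, too, the mean of the PS-MP libraries was below the minimum of 10 CPM, which they passed only through their control libraries. Elovl3 overlaps Pitx3 on the opposite strand in GENCODE M21, and Pitx3 followed it at a far lower level, with 0.534, 0.249 and 6.39 CPM in PS-MP and 4.38, 4.66 and 1.48 CPM in control. Elovl1 likewise overlaps Cdc20 on the opposite strand, which had at most 0.578 CPM in PS-MP and 1.02 CPM in control. How strand was treated in counting is not stated in the labels, so reads of such pairs cannot be told apart.

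**Figure D4:**
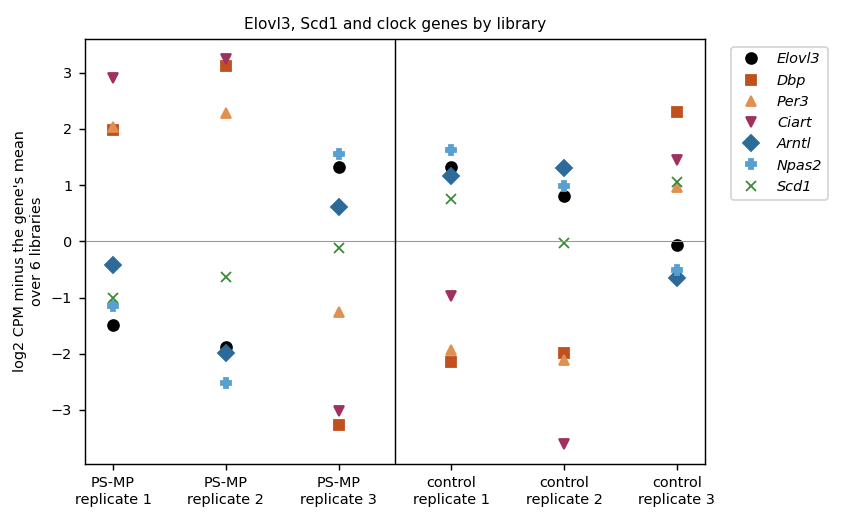
Log2 CPM of Elovl3, Scd1 and 5 clock genes minus each gene's mean over the 6 libraries, with PS-MP libraries left of the vertical line and control libraries right. Elovl3 (black circles) lies with Arntl and Npas2 and opposite to Dbp, Per3 and Ciart in each library but control replicate 3, where it is near its mean, while Scd1 (crosses) does not follow that order.

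Enzymes that work with the 10 were also compared. Elongation needs the ketoacyl reductase HSD17B12, the dehydratases of the HACD family and the enoyl reductase TECR, and desaturation needs electrons from CYB5R3 through cytochrome b5. Of 19 such genes and other family members, 16 were tested, and edgeR called 0, as did DESeq2 and limma-voom. At an unadjusted p under 0.05, 2 were lower and 0 higher, and 10 of 16 were below zero (median -0.15). Hsd17b12 had 96.2, 118 and 138 CPM in PS-MP, against 173, 147 and 190 CPM in control, without overlap (log2 fold change -0.53, SE 0.17, adjusted p = 0.837). Cyb5r3 had 384, 387 and 433 CPM in PS-MP, against 722, 427 and 593 CPM in control, so that PS-MP replicate 3 just exceeded control replicate 2 (log2 fold change -0.53, adjusted p = 0.918). Hacd2 had -0.31 and Tecr -0.27, and Elovl4, Elovl7 and Degs2 were too low to test.

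The supply of saturated acids to these enzymes had 9 of 12 genes below zero, with a median log2 fold change of -0.38. Of these, edgeR, DESeq2 and limma-voom called 0, and 1 was lower at an unadjusted p under 0.05, Me1, the malic enzyme gene that supplies NADPH (-1.28, SE 0.41, adjusted p = 0.828). The fatty acid synthase gene Fasn averaged 43.6 ± 14.9 CPM in PS-MP and 68.5 ± 27.8 CPM in control (SD, n = 3; log2 fold change -0.65), Acss2, which activates acetate, had -0.74 and Pgd, of the pentose phosphate route, -0.41. The 3 genes above zero were Acaca, Mid1ip1 and G6pdx. Acaca, the acetyl-CoA carboxylase gene, had the widest difference of the list and the opposite sign, with 27.9, 4.26 and 15.0 CPM in PS-MP, against 0.0413, 0.246 and 11.9 CPM in control (log2 fold change 1.94, SE 1.67). This difference rests mainly on control replicates 1 and 2, which held only 3 and 15 counts of Acaca, against 1263 in control replicate 3. Mid1ip1, whose product activates that carboxylase, had 0.29, G6pdx 0.04 and the citrate lyase gene Acly -0.04.

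Transcriptional regulators showed no common shift, with 14 of 21 genes below zero and a median of -0.08. All 21 were tested, edgeR, DESeq2 and limma-voom called 0, and 0 had an unadjusted p under 0.05. Srebf1, which encodes SREBP-1c and the related SREBP-1a, averaged 17.3 ± 1.71 CPM in PS-MP and 24.7 ± 8.62 CPM in control (SD, n = 3; log2 fold change -0.52, interval -1.16 to 0.12). Nr1h3, the gene of LXR alpha, had 0.05 (interval -0.27 to 0.37), Mlxipl, the gene of the sugar-responsive factor ChREBP, 0.40 (-0.30 to 1.11), and Ppara 0.29 (-0.54 to 1.13). The other genes with the smallest p were Nfyb, a subunit of NF-Y (-0.88), and Mlx, the partner of ChREBP (-0.32).

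Genes that activate fatty acids or use the unsaturated products had 16 of 19 below zero (median -0.16), with 0 called by edgeR, DESeq2 or limma-voom and 2 lower at an unadjusted p under 0.05. These were Soat2, which esterifies cholesterol with oleate (-1.27, SE 0.41), and Hsd17b4, of peroxisomal beta-oxidation (-0.39, SE 0.14). Ceramide synthesis, which uses the chains that ELOVL1 makes, had 6 of 10 tested genes below zero (median -0.02). By edgeR and limma-voom 0 were called, and at an unadjusted p under 0.05 Kdsr was lower (-0.43) and the sphingomyelin synthase gene Sgms2 higher (3.47). DESeq2 called Sgms2, which had 0.449, 0.804 and 6.89 CPM in PS-MP, against 0.317, 0.345 and 0.0851 CPM in control, and so rested mainly on PS-MP replicate 3. Sptlc1, of the first step, had -0.31. With scaling by library size alone the medians of the partner, regulator, fatty acid use and ceramide lists were above zero, at 0.06, 0.13, 0.04 and 0.21, where the median of all genes was 0.23.

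**Figure D5:**
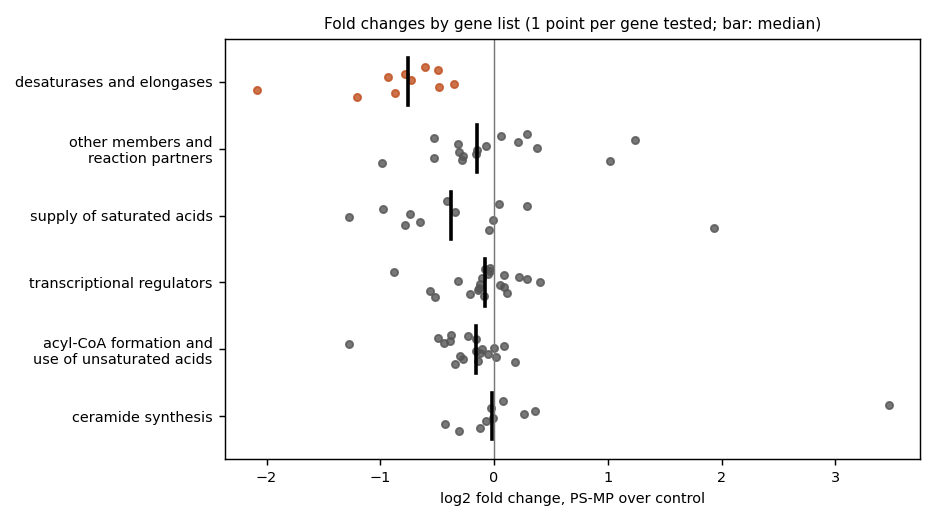
Log2 fold change of every tested gene, PS-MP over control, by gene list, with the median of each list as a bar. The 10 desaturases and elongases (top) all lie below zero with a median of -0.76, while the medians of the other lists lie between -0.38 and -0.02.

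Fat tissue expresses Scd1, Scd2 and Elovl6. Of its marker genes, Adipoq, Plin1, Lep and Ucp1 were at most 0.479 CPM in PS-MP and 0.0189 CPM in control. In PS-MP, Adipoq, Plin1 and Lep had counts only in replicate 3 (20, 41 and 10). Retn, also low, went the other way, with 0 counts in each PS-MP library and 18, 11 and 35 in control. The 13 adipocyte genes summed to between 2267 and 3651 CPM in PS-MP and between 2713 and 3736 CPM in control, nearly all from Car3, which hepatocytes also express. Of the 8 tested, 6 were below zero and edgeR called 0 (3 lower at an unadjusted p under 0.05, 1 by DESeq2, Retn, 0 by limma-voom). The 2 above zero were Cfd and Plin4. Cfd had 6.20, 22.3 and 4.65 CPM in PS-MP, against 8.75, 2.18 and 11.9 CPM in control (log2 fold change 0.54). Cidec and Cidea, lipid droplet genes of fat that steatotic hepatocytes also express, had -1.68 and -2.21, with 81.4, 13.3 and 64.9 CPM of Cidea in control, the order in which control replicate 2 was also lowest for Scd1. Their part in the Scd1 values was not tested.

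Kupffer cell markers ran the other way, with all 6 above zero (median 0.56) and sums of 116 to 140 CPM in PS-MP and 79.9 to 102 CPM in control. Marco, a scavenger receptor gene, had 2.25 and Adgre1 0.70. EdgeR and limma-voom called 0 of the 6, 2 were higher at an unadjusted p under 0.05 and DESeq2 called 1, Marco. Sums overlapped between the groups for endothelial, stellate, cholangiocyte, lymphocyte and mesothelial markers. All 6 endothelial genes (median 0.21) and all 3 mesothelial genes (median 0.77) were nevertheless above zero, as were 3 of 6 stellate (0.04), 3 of 5 cholangiocyte (0.74) and 3 of 5 lymphocyte genes (0.05). Of these lists, edgeR, DESeq2 and limma-voom called 0, and 1 gene was higher at an unadjusted p under 0.05, the mesothelial gene Msln (0.998), whose groups did not overlap. Neutrophil markers summed to 1.36 to 5.80 CPM in PS-MP and 0.737 to 1.18 CPM in control, with 3 of 6 tested, 0 called by edgeR and limma-voom, 1 by DESeq2 (S100a9) and 2 higher at an unadjusted p under 0.05. Hepatocyte markers summed to 63575 to 83937 CPM in PS-MP and 60868 to 73315 CPM in control. The part of these markers in the values of the 10 genes was not tested.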

How the data were processed

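Per the labels, libraries were directional and made from poly(A)-selected RNA. Bcl2fastq and GRCm39 are named in the submitters' processing notes, while aligner, counter, annotation and strand setting are not stated there. The deposited files hold unnormalised whole-number counts per gene, by their values, for 6 libraries.

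Rows of the same symbol were summed. In R 4.3.3, filterByExpr of edgeR 4.0.16 left 17662 genes, TMM gave the library scaling, and edgeR's quasi-likelihood test compared PS-MP with control, with Benjamini-Hochberg adjustment over all of them. Intervals are 95%, from the SE and 6.63 moderated degrees of freedom. For library measures, exact permutation tests (two-sided) were used. Distances used log2 CPM with a prior count of 2. Alternatives were other scalings and filters, DESeq2 1.42.0, limma-voom (limma 3.58.1), removal of 18S or mitochondrial genes, a replicate block, Scd genes summed and leaving out each library; a clock index (mean log2 CPM of Dbp, Per3 and Ciart minus that of Arntl and Npas2) and the median without Scd3 were added after seeing the data.

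The members, the lists and the motifs were chosen with earlier results of these data known. Named genes were all members, the 3 genes of smallest p in each pathway list, a few regulators and partners, and the 5 genes nearest to Scd1; others were chosen after their values were seen, and some that the rule names are not reported here. Exon lengths, overlaps and shared stretches come from GENCODE M21 (GRCm38), another build than that of the counts.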

Additional observations from a re-analysis of the deposited data

How the results depend on the processing

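Over the alternatives, all 171 values of the 10 genes stayed below zero and 0 passed the threshold. The median of the 10 ran between -0.86 (without PS-MP replicate 3) and -0.50 (without control replicate 1). The number of the 10 lower at an unadjusted p under 0.05 was 4, but 1 with library size only and between 2 and 6 with a library left out. Genes called over all genes numbered 2, but 187 with DESeq2 (62 higher and 125 lower), 1 with limma-voom, 1 with the clock index, and between 0 and 4 with a library left out. The difference in 18S reads, -4.37 percentage points, ran between -6.34 and -1.32 with a library left out. The causes were not tested.

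Replicate numbers share no stated source, so they were not taken to pair the samples. Same-numbered libraries correlated in their deviations by 0.11, 0.14 and -0.13, and differently numbered ones by -0.185 to 0.097. With so few libraries, these values cannot exclude a pairing. With the replicate block, 0 genes were called, and the 10 genes had a median of -0.81 with 4 lower at an unadjusted p under 0.05. Scd3, 0 in 1 library, ran between -5.68 and -1.51, and without it the median was -0.73. Apart from that 0, the lowest count of a member in any library was 499. Whether depth limits these values was not tested.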
